A study of Mus musculus with 2 samples.

Results

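The genes described here are 10 genes that build and assemble the T cell receptor, measured in single cells of the adult C57BL/6 mouse thymus. They were taken by symbol from the gene list of the 2021 library, and all 10 were found among its 32285 gene rows. Rag1, Rag2 and Dntt encode the DNA recombinase and the template-independent DNA polymerase that assemble receptor genes. Ptcra encodes the pre-T cell receptor alpha chain, Cd3d, Cd3e and Cd3g encode the CD3 signalling chains, and Trac, Trbc1 and Trbc2 are the constant segments of the receptor alpha and beta chains. The cells came from a digested thymus and had been sorted for surface CD64, an Fc receptor of macrophages and monocytes, and the labels call the cell type macrophage. No treatment, genotype or age in weeks was given, and the number of mice is not stated in the labels. Of 3214 deposited barcodes, 3188 held 500 or more UMIs from 300 or more genes with no more than 10% of UMIs mitochondrial, and were kept. A UMI marks 1 captured RNA molecule, and a level below is the number of UMIs of a gene in every 1000000 UMIs of the same cells (CPM).

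A second library of the same design, from 2024, has 2815 barcodes and a median of 5312 UMIs per barcode, against 2157.5 in 2021. Its gene names and barcodes were not analysed here, so each value below comes from 1 library. The cells of 1 library are not replicates of a condition. Intervals are exact 95% Poisson intervals of counts or binomial intervals of shares, they cover counting error only, and no p-values were computed. Named by markers without use of the 10 genes, 377 cells (11.8%) were T lineage-like, 299 NK and ILC-like, 368 (11.5%) macrophage-like, 823 conventional DC-like, 478 monocyte-like, 501 neutrophil-like and 211 B lineage-like. A dividing cluster of 120 cells stayed unnamed. The NK and ILC-like cluster had 10 of 10 NK markers raised, but 8 of 12 ILC markers had 0 UMIs in it. ILC markers summed to 80.8 CPM there, against 172 CPM in T lineage-like cells, so the name rests on the NK markers. The macrophage markers (C1q genes, Mertk, Adgre1 and others, 12 in all) stood at a summed level of 10527 CPM in the macrophage-like cells and of 449 CPM in the T lineage-like cells. Fcgr1, the gene of CD64, had a UMI in 29.1% of macrophage-like cells, in 1.59% of T lineage-like cells and in 0.669% of NK and ILC-like cells.

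T cell precursors enter the thymus without a receptor. They rearrange the beta chain gene first, test it on the surface with the Ptcra product and the CD3 chains, divide, and then rearrange the alpha chain gene as double-positive cells that carry CD4 and CD8. Cells that pass selection switch off the recombinase and become single-positive cells. Thymic macrophages take up thymocytes that die on the way, and in droplet libraries RNA free in the suspension can enter any droplet.

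The genes lie on 6 mouse chromosomes in build mm10. Rag1 (ENSMUSG00000061311, chr2:101638282-101649501, minus strand) and Rag2 (ENSMUSG00000032864, chr2:101624718-101632529, plus strand) point towards each other with 5752 bases between them. Cd3g (ENSMUSG00000002033, chr9:44969572-44980431, minus strand) and Cd3d (ENSMUSG00000032094, chr9:44981786-44987339, plus strand) point away from each other with 1354 bases between their starts. Cd3e (ENSMUSG00000032093, chr9:44998740-45009627, minus strand) is the next of these genes, 11400 bases beyond Cd3d. Dntt (ENSMUSG00000025014) lies at chr19:41029275-41059525 on the plus strand and Ptcra (ENSMUSG00000036858) at chr17:46755663-46763712 on the minus strand. These 7 are annotated as protein-coding genes. Trac (ENSMUSG00000076928, chr14:54220521-54224206), Trbc1 (ENSMUSG00000076490, chr6:41538218-41539881) and Trbc2 (ENSMUSG00000076498, chr6:41546730-41548352) are annotated as T cell receptor constant segments, all on the plus strand. Trbc1 and Trbc2, 6848 bases apart, are similar copies: 88.2% of 687 aligned transcript bases were the same, and 41.1% of the 50-base windows of Trbc1 occurred in Trbc2. None of the windows in the last 300 bases of Trbc1 did (0%), but how reads that match both copies were counted is not given in the sources used here, and the split between the 2 copies is uncertain to that extent.

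Promoters were looked up in RefSeq for the 7 genes that are not constant segments, and all 7 matched. The 250 bases before the start site of 5 of them are printed because Rag1, Rag2 and Ptcra were low or absent in mature cells and Cd3d and Cd3g were not (values below). The build is GRCm38.p6, and each sequence is written 5′ to 3′ on the gene's strand. Capitals mark matches to CANNTG, the E-box to which E proteins such as those of Tcf3 and Tcf12 bind.
Rag1, chr2:101649533-101649782, minus strand: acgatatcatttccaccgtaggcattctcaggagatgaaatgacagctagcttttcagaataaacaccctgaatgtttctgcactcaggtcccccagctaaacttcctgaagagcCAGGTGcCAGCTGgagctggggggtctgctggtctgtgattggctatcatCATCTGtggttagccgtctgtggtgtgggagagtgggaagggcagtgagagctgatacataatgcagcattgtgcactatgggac
Rag2, chr2:101624462-101624711, plus strand: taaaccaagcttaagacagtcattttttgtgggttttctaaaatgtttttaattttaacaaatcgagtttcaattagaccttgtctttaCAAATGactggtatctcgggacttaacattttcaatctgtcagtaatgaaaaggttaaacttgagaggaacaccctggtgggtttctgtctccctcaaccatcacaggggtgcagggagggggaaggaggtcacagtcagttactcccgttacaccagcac
Ptcra, chr17:46763713-46763962, minus strand: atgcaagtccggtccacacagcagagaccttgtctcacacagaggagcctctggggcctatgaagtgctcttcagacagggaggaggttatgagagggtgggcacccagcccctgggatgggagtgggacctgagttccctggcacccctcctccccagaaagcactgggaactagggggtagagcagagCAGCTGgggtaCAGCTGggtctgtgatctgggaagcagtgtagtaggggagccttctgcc
Cd3d, chr9:44981536-44981785, plus strand: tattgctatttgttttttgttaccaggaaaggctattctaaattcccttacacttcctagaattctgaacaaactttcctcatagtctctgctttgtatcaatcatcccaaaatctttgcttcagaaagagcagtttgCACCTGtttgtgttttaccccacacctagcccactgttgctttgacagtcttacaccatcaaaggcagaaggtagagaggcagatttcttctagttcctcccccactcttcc
Cd3g, chr9:44980432-44980681, minus strand: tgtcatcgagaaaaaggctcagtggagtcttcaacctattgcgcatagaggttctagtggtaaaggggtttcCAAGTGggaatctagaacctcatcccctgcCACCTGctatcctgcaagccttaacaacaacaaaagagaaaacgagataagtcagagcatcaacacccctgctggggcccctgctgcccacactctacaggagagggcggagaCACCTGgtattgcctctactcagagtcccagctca
The Rag1 window held 3 matches (CAGGTG from 135 bases before the start, CAGCTG from 128 bases and CATCTG from 85 bases, counted from the RefSeq start), the Rag2 window 1, the Ptcra window 2 copies of CAGCTG, the Cd3d window 1 and the Cd3g window 3. The Dntt window held 3 and the Cd3e window 1. Among 32851 RefSeq promoter windows of the same length, 66.2% held at least 1 match to CANNTG on either strand, so that a match is common. TGTGGT, the Runx core, was searched on both strands and was found only in Rag1 among the 7 (2 matches, 14.0% of all windows with at least 1). The Rag1 match CATCTG overlaps the first of these by its last letters. CTTTGA, the TCF1 and LEF1 core, was found only in Cd3d (2 matches, 13.8% of all windows), AGATAA, the Gata core, in Dntt and Cd3g (9.99% of all windows) and TATAAA in none of the 7 (12.4% of all windows). The bases just after the RefSeq starts of Rag1 and Cd3e were not found in the GENCODE transcripts of these genes, so for these 2 the start was not checked, nor were the window and distances that follow from it. These are matches of letters and not measured binding sites.

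All 10 genes were higher in T lineage-like cells than in the 2512 cells that were neither T lineage-like nor NK and ILC-like. With 10 CPM added to each side, 10 of 10 passed a log2 ratio of 1, where 15.9% of the 10999 genes compared did so. The median log2 ratio of the 10 genes was 5.38, beside 0.29 over all genes compared. Scaling by the median of ratios shifted the comparison by 0.68 on the log2 scale, and relative to that shift 10 of 10 still passed. Every T lineage-like cell held at least 1 UMI of the 10 genes, with a median of 15 per cell and 7548 in all. The comparison gene set also held the markers that named the class, but the 10 genes took no part in the clustering.

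Among the recombination genes, Rag1 stood at 633 CPM (95% interval 578 to 691, 490 UMIs) in T lineage-like cells and at 6.20 CPM (4.54 to 8.27, 46 UMIs) in the comparison cells, a ratio of 102. With the stricter cell filter (181 T lineage-like cells, at least 1000 UMIs each) the Rag1 level was 329 CPM (285 to 378). Dntt stood at 541 CPM (491 to 596) and 3.50 CPM (2.29 to 5.13), a ratio of 154. Rag2 gave few UMIs, 41 against 7, with levels of 53.0 CPM (38.0 to 71.8) and 0.943 CPM (0.379 to 1.94). Ptcra gave 49 UMIs in T lineage-like cells (63.3 CPM, 46.8 to 83.7) and 4 in the comparison cells (0.539 CPM, 0.147 to 1.38). All 4 intervals were far apart between the groups.

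The CD3 chain genes were at 850 CPM (786 to 917) for Cd3d, 590 CPM (537 to 647) for Cd3e and 874 CPM (810 to 943) for Cd3g in T lineage-like cells. Their levels in the comparison cells were 9.70, 4.04 and 5.25 CPM. Trac stood at 391 CPM (349 to 438) against 6.47 CPM, a ratio of 60.5, the lowest ratio of the 10 but for that of Rag2 (56.1). The Trac level was 218 CPM (183 to 259) with the stricter filter. Trbc1 stood at 1903 CPM (1807 to 2002) against 16.3 CPM, and Trbc2 at 3850 CPM (3713 to 3991) against 22.8 CPM. The heat map of levels by class shows the T lineage-like row apart from all others and the NK and ILC-like row second for every gene but Rag2, which was at about 1 CPM or 0 in every other class.

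**Figure D1:**
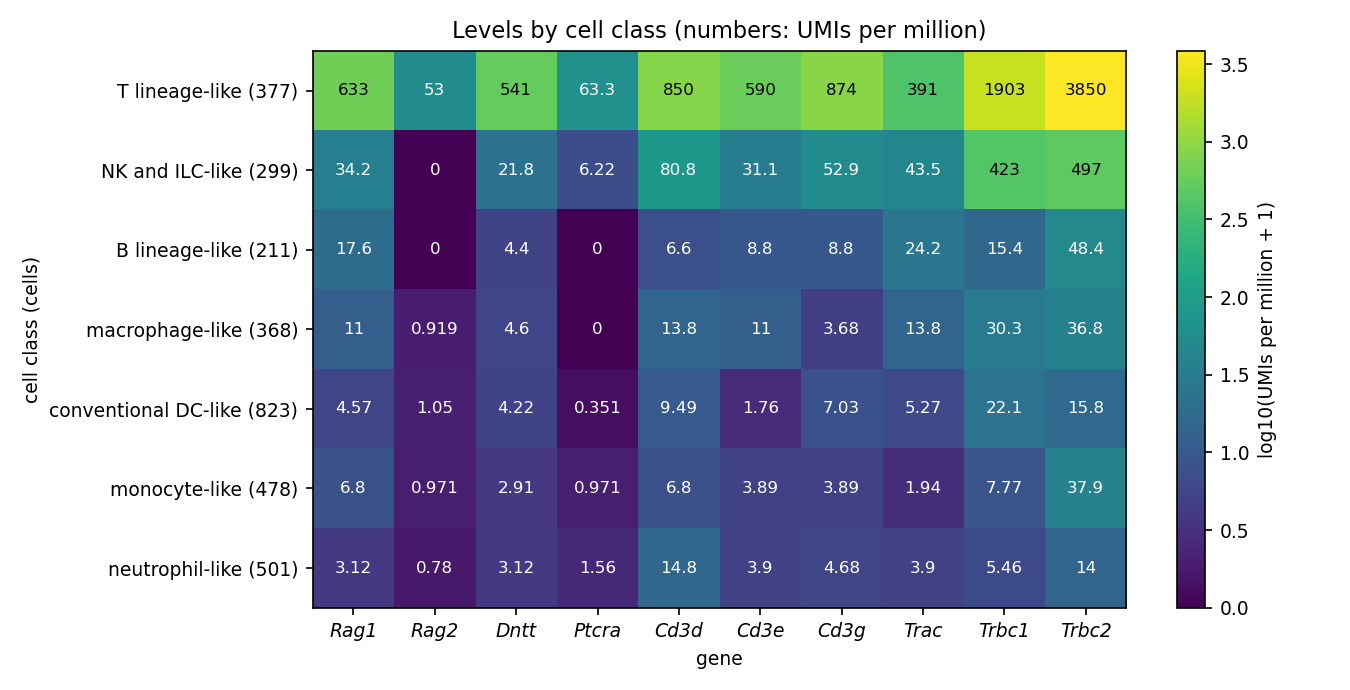
Level of each gene (columns) in 7 cell classes (rows, number of cells in brackets), with colour for log10 of CPM plus 1 and the level printed in each field. Trbc2 runs from 3850 in T lineage-like cells over 497 in NK and ILC-like cells to 14.0 in neutrophil-like cells, and Ptcra is 0 in macrophage-like and B lineage-like cells.

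Other genes of the pathway, from lists given by function, were compared in the same way. Of 24 T cell receptor signalling genes, 17 were past a log2 ratio of 1 towards the T lineage-like cells and 1 away from them, with a median of 2.21. Over all genes compared, 15.9% were past that ratio towards the T lineage-like cells and the median was 0.29. Relative to the shift of 0.68, 16 of the 24 signalling genes were. The 3 largest ratios were those of Lat, an adaptor phosphorylated after receptor engagement (579 against 6.06 CPM), Cd8b1, a chain of the CD8 co-receptor (761 against 13.2 CPM), and Lck, the co-receptor-bound kinase (488 against 7.55 CPM). The exception was Syk, a kinase related to Zap70, at 40.0 against 108 CPM. Of 13 partners in DNA end joining and recombination, 4 were higher and 0 lower: Xrcc6, a Ku subunit, Lig4, the joining ligase, and Hmgb1 and Hmgb2, chromatin proteins that bend DNA for the recombinase. Xrcc6 stood at 154 against 8.22 CPM. Of 16 thymocyte transcription factors, 13 were higher and 0 lower, led by Tcf7 (1115 against 13.1 CPM), Bcl11b (581 against 4.58 CPM) and Satb1 (1143 against 30.9 CPM). Of 5 other receptor constant genes, 4 could be compared and all 4 were higher: Trdc, Tcrg-C1, Tcrg-C2 and Tcrg-C4. Relative to the shift, 3 of the 13 partners were higher, without Lig4. Of the 16 factors 12 were then higher and 1 lower, and of the 4 constant genes 2 were higher, Trdc and Tcrg-C2. Several of these genes were also markers of the class or took part in the clustering, which the 10 genes did not.

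Clustering the 377 T lineage-like cells again, without the 10 genes, gave 7 groups. The group of 107 double-positive-like cells carried 9 of 10 markers of that stage, among them Cd4, Cd8a, Cd8b1 and Endou, but it was shallow (median 614 UMIs), and immunoglobulin genes (Igkc and Igha) led its list of raised genes. Its name rests on a minimum of 15 UMIs for a leading gene, set after the clusters had been seen. A group of 77 dividing-like cells was led by histone genes (median 2364 UMIs) and another of 67 dividing-like cells by E2f2 (median 1192 UMIs). The former had 6 of 10 division markers raised, the latter only 4 (Mki67, Top2a, Ccnb2 and Rrm2). Cd4 stood at 482 CPM (364 to 625) in the E2f2-led cells, beside 601 CPM (443 to 797) in the double-positive-like cells. The 68 mature single-positive-like cells carried Ccr7, S1pr1 and Klf2 (median 961 UMIs) and the 18 regulatory-like cells Foxp3 and Ctla4. A group of 20 cells led by Cd209a, and another of 20 led by Ngp, stayed unnamed because genes of dendritic cells or neutrophils led them. In the Ngp-led cells S100a8 stood at 4216 CPM, and in the Cd209a-led cells Cd74 stood at 11702 CPM, against 98.5 to 835 CPM in the 6 other groups. The part of such mixed cells in the levels below was not tested.

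Rag1, the catalytic subunit of the recombinase, was highest in double-positive-like cells, at 2230 CPM (1915 to 2583, 178 UMIs). It followed at 1299 CPM (1100 to 1523) in the E2f2-led dividing-like cells and at 381 CPM (306 to 469) in the histone-led ones. The unnamed Ngp-led and Cd209a-led groups lay at 299 and 287 CPM, with intervals that overlapped each other and that of the histone-led cells. Mature single-positive-like cells had 3 Rag1 UMIs (37.4 CPM, 7.71 to 109) and regulatory-like cells 0 (up to 126 CPM). At an equal depth of 500 UMIs per cell, a Rag1 UMI was found in 61.7% of double-positive-like, 50.7% of E2f2-led, 27.3% of histone-led and 2.94% of mature single-positive-like cells. It was found in 9 of 20 Ngp-led cells and in 3 of 20 Cd209a-led cells. The interval of the share in the Ngp-led cells overlapped that of the histone-led cells.

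Rag2, its partner subunit, gave 13 UMIs in double-positive-like cells (163 CPM, 86.7 to 279), 9 in the E2f2-led (77.4 CPM, 35.4 to 147) and 11 in the histone-led cells (47.1 CPM, 23.5 to 84.3). It had 0 UMIs in mature single-positive-like (up to 46.0 CPM) and regulatory-like cells. The intervals of neighbours in this order overlapped. Dntt, which adds bases at the joints, was at 1049 CPM (871 to 1253) in the E2f2-led and 940 CPM (739 to 1178) in the double-positive-like cells, which overlapped. It stood at 527 CPM (438 to 629) in the histone-led, 496 CPM in the Ngp-led and 305 CPM in the Cd209a-led cells. It had 3 UMIs in mature single-positive-like cells (37.4 CPM, 7.71 to 109) and 0 in regulatory-like cells.

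Ptcra was highest in another group than the other recombination-stage genes, but on few cells. Its highest level was in the Ngp-led cells, at 150 CPM (90.1 to 234, 19 UMIs), where constant segments of the gamma chain genes were also highest (292 CPM, 37 UMIs). Those gamma chain segments were not left out of the clustering. Tcrg-C1, Tcrg-C2 and Tcrg-C4 were also among the markers scored to name the groups, so their height there is not a separate observation. These Ptcra UMIs came from few of the 20 cells: 4 without Trac and 1 with it. At 500 UMIs per cell, 0 Ngp-led cells held Ptcra. The dividing-like groups were at 86.0 CPM (41.2 to 158, E2f2-led) and 55.7 CPM (29.7 to 95.2, histone-led). Double-positive-like cells had 2 Ptcra UMIs (25.1 CPM, 3.04 to 90.5), and mature single-positive-like and regulatory-like cells had 0. With 49 UMIs in all, neighbours in this order were not separated by their intervals. The interval of the Ngp-led cells also overlapped that of the double-positive-like cells.

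The CD3 genes did not follow the recombination genes. Cd3d, the delta chain gene, was at 1756 CPM (1478 to 2071) in mature single-positive-like, 1692 CPM (1418 to 2002) in double-positive-like, 1191 CPM (830 to 1656) in regulatory-like and 943 CPM (822 to 1076) in histone-led cells. It was lower in the E2f2-led cells, at 525 CPM (401 to 674). Cd3g, the gamma chain gene, had the same 3 groups highest, at 1856 CPM, 1491 CPM and 1327 CPM, with overlapping intervals. Cd3e, the epsilon chain gene, was at 1065 CPM (851 to 1317) in double-positive-like and 934 CPM (735 to 1171) in mature single-positive-like cells, and the 2 unnamed groups were lowest for all 3 CD3 genes.

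Trac, the alpha chain segment, had 3 groups high and 4 low. It was at 1225 CPM (858 to 1696) in regulatory-like, 1208 CPM (980 to 1474) in mature single-positive-like and 1040 CPM (828 to 1289) in double-positive-like cells, whose intervals overlapped. It was at 267 CPM (181 to 378) in the E2f2-led and 103 CPM (65.9 to 153) in the histone-led dividing-like cells. Trdc, the delta chain constant segment, ran the other way: 249 and 227 CPM in the E2f2-led and histone-led cells, 113 CPM in double-positive-like cells and 0 UMIs in mature single-positive-like and regulatory-like cells. Unlike Trac, Trdc was not left out of the clustering and was among the stage markers. Trac and Trdc were found together in 17 cells, Trac alone in 153 and Trdc alone in 45 of the 377. At 500 UMIs per cell these counts were 1, 101 and 17.

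The beta chain constant segments were highest in double-positive-like cells: Trbc2 at 8759 CPM (8122 to 9433) and Trbc1 at 3960 CPM (3535 to 4421). Trbc2 followed at 4666 CPM in the histone-led, 4076 CPM in the E2f2-led and 3401 CPM in the mature single-positive-like cells. Trbc1 was at 2061, 1857 and 1968 CPM in the same 3 groups, with overlapping intervals. Regulatory-like cells had the lowest Trbc2 level (987 CPM, 661 to 1417). The plot of levels by group shows the recombination genes at or near 0 in the mature groups and Trac low in the dividing-like groups. It shows both beta chain segments highest in the double-positive-like cells and Trbc2 lowest in the regulatory-like cells.

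**Figure D2:**
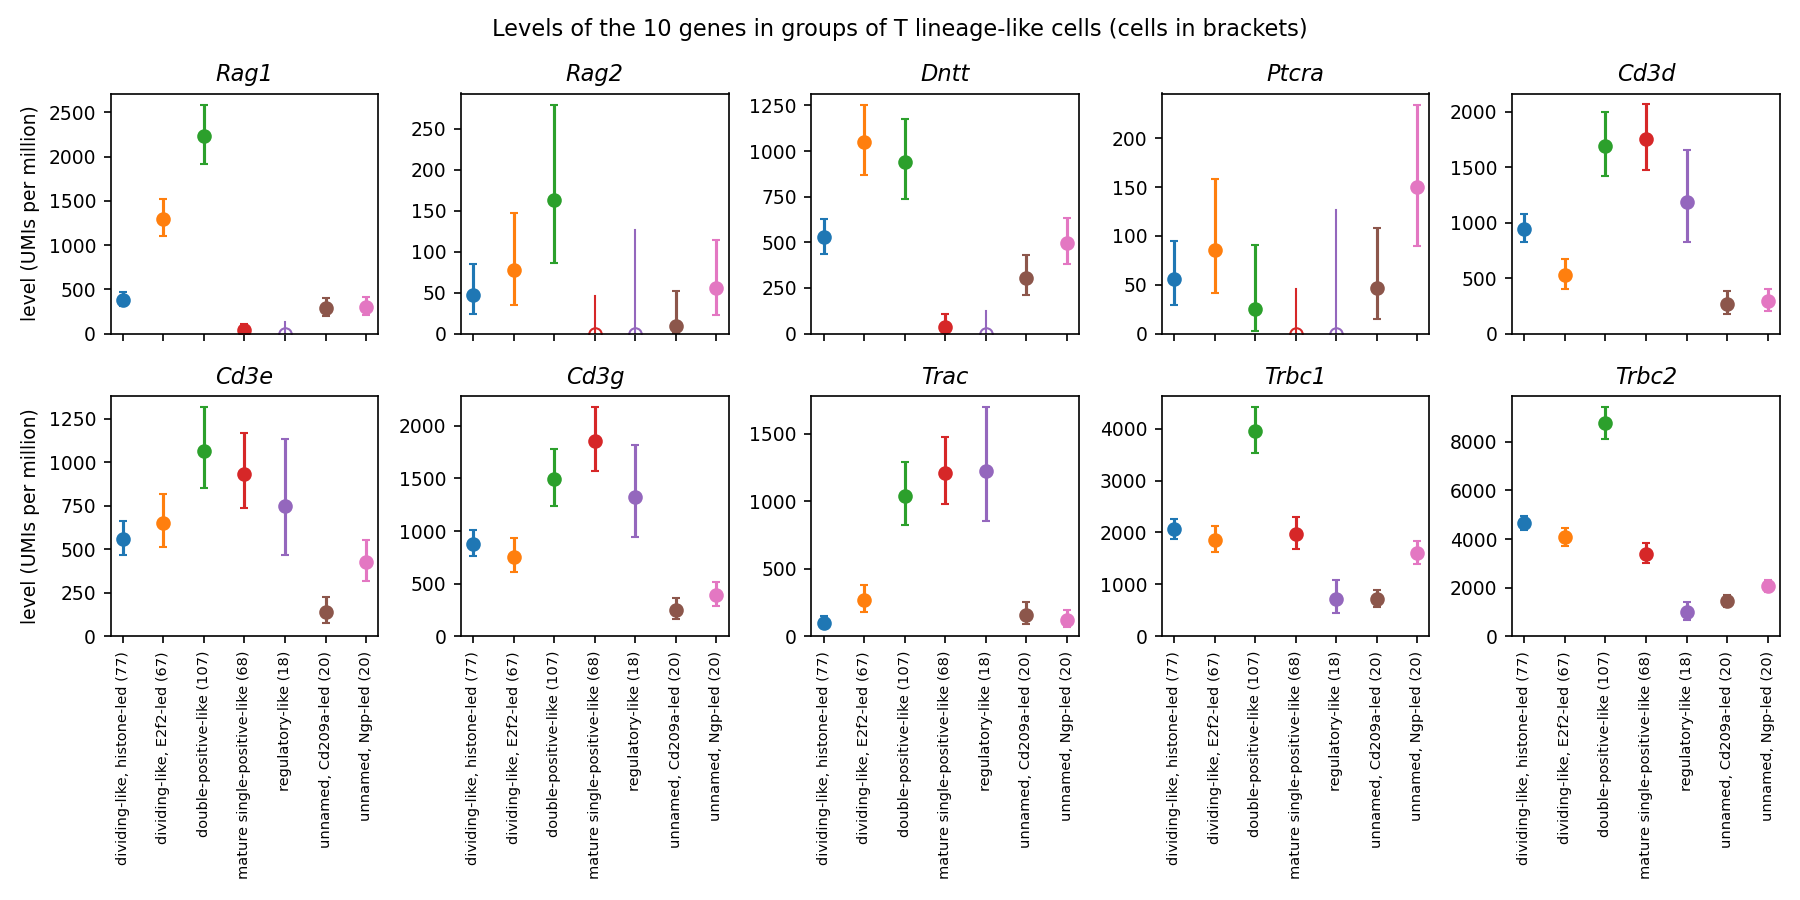
Level of each gene in UMIs in every 1000000 (own linear axis per gene) in the 7 groups of T lineage-like cells, number of cells in brackets; bars are exact 95% Poisson intervals and open circles mark 0 UMIs. Rag1 runs from 2230 in double-positive-like to 37.4 in mature single-positive-like cells, while Cd3d lies at 1692 and 1756 in the same groups.

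Set directly against each other, double-positive-like cells had 5.49 log2 units (4.35 to 6.95) more of the 4 recombination-stage genes in sum than mature single-positive-like cells, 268 against 6 UMIs. Of the 8 members with enough UMIs to compare, 4 were past a log2 ratio of 1 towards the double-positive-like cells, where 22.2% of 1783 genes were. They were Rag1 (59.7-fold, 178 against 3 UMIs, log2 interval 4.33 to 8.19), Dntt (25.1-fold, 75 against 3 UMIs, 3.05 to 6.96), Trbc2 (2.58-fold, 1.16 to 1.57) and Trbc1 (2.01-fold, 0.73 to 1.29). Relative to a median-of-ratios shift of 0.18 on the log2 scale, 3 of the 4 were, without Trbc1. Of the 8, 0 were past a log2 ratio of 1 towards the mature cells, where 8.75% of genes were. Cd3d (log2 interval −0.41 to 0.30), Cd3e (−0.28 to 0.66), Cd3g (−0.68 to 0.04) and Trac (−0.66 to 0.22) were within counting error of no difference. Rag2 and Ptcra were too sparse for this count; Rag2 gave 13 against 0 UMIs, and the lower 95% limit of its log2 ratio was 1.62, from counting error only. Without the cell filter the log2 difference in the recombination-stage sum was 4.01, and with the stricter filter or a coarser division of the T lineage-like cells the stages could not be named.

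Of the 18 signalling genes that could be compared between these groups, 6 were higher in double-positive-like cells and 3 in mature cells, with a median log2 ratio of 0.55 beside 0.20 over all genes. Of all 1783 genes compared, 22.2% were higher and 8.75% lower by the same rule. Relative to the shift of 0.18, 5 of the 18 signalling genes were higher in double-positive-like cells and 3 in mature cells. Themis (551 against 62.3 CPM), Cd8b1 and Cd8a led the former. The latter were Fyn, a Src-family kinase (37.6 against 212 CPM), Cd5 and Cd6, surface proteins that dampen receptor signals. Of 11 transcription factors, 5 were higher in double-positive-like cells and 0 lower: Tcf12 (451 against 62.3 CPM), Gata3, Myb, Tcf7 and Bcl11b. Of 3 end-joining partners with enough UMIs, Hmgb1 (3784 against 785 CPM) and Xrcc6 (263 CPM against 0) were higher. Cd4, Cd8a and Cd8b1 were markers of the stage and took part in the clustering.

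Within single cells, detection depended on depth, so pairs were also counted at 500 UMIs per cell. Rag1 and Dntt were found together in 128 of 377 T lineage-like cells, Rag1 alone in 73, Dntt alone in 58 and neither in 118. At 500 UMIs per cell the 4 counts were 51, 84, 39 and 203. Rag1 and Rag2 were found together in 26 cells, and Rag2 without Rag1 in 7. Rag1 and Trac were found together in 75 cells of all groups, 28 of them double-positive-like, and in 1 of the 68 mature single-positive-like cells. Ptcra and Trac were found together in 7 cells, with Ptcra alone in 22 and Trac alone in 163. At 500 UMIs per cell Ptcra was left in 3 cells, none of them with Trac (0 cells).

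Each T cell can use either beta constant segment, and 154 T lineage-like cells held at least 10 Trbc1 and Trbc2 UMIs together. In 49 of them Trbc2 made up 90% or more of these UMIs, in 4 Trbc1 did, and 101 lay between. The median share of Trbc1 was 30.5%. It was 22.2% in the histone-led dividing-like cells, where 26 of 61 cells were at 90% or more Trbc2, 30.8% in double-positive-like cells (8 of 35) and 63.1% in mature single-positive-like cells (2 of 12). Those 12 are few of the 68 mature cells: over all 68, Trbc2 alone was found in 37, both copies in 30 and Trbc1 alone in 0, and Trbc1 made up 158 of 431 UMIs (36.7%), against 31.1% in all double-positive-like cells. Cells of nearly pure Trbc2 were thus common and cells of nearly pure Trbc1 rare, with the limit on telling the 2 copies apart given above. In NK and ILC-like cells only 2 cells reached 10 such UMIs.

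**Figure D3:**
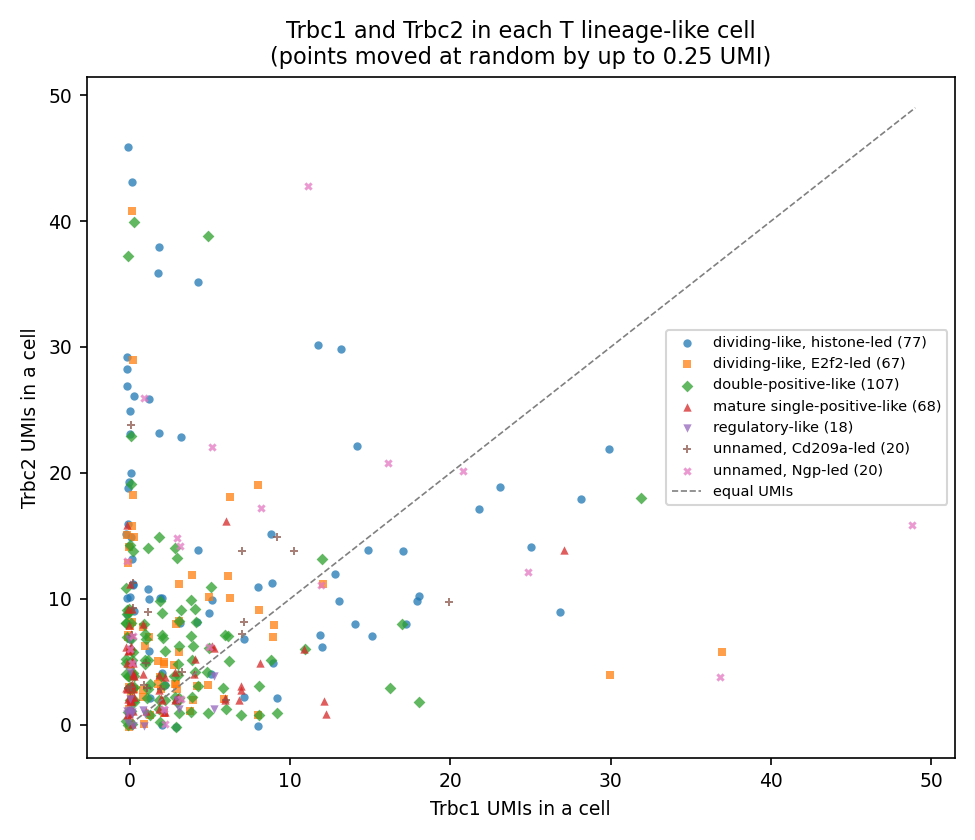
Trbc1 UMIs (x axis) against Trbc2 UMIs (y axis) in each of the 377 T lineage-like cells, with a symbol and colour for each of 7 groups and a dashed line of equal UMIs; points are moved at random by up to 0.25 UMI. A column of cells stands at 0 Trbc1 UMIs and high Trbc2, no such row stands at 0 Trbc2, and 101 of the 154 cells with at least 10 UMIs hold between 10 and 90% Trbc1.

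Outside the T lineage-like class the genes were found in most classes at a low level and unevenly between cells. At least 1 UMI of the 10 was found in 53.8% of NK and ILC-like, 10.6% of macrophage-like, 9.95% of B lineage-like, 7.39% of neutrophil-like, 6.44% of conventional DC-like and 5.02% of monocyte-like cells. Summed over the 10 genes, the level was 1191 CPM (1074 to 1316) in NK and ILC-like cells, against 9749 CPM in T lineage-like cells. It was 134 CPM (103 to 172) in B lineage-like, 126 CPM (106 to 149) in macrophage-like, 73.8 CPM (58.2 to 92.4) in monocyte-like, 71.7 CPM (62.2 to 82.2) in conventional DC-like and 55.4 CPM (43.2 to 69.8) in neutrophil-like cells. The order of the low classes turned with the stricter cell filter (at least 1000 UMIs and 500 genes, at most 5% mitochondrial): monocyte-like cells then stood highest of the 5, at 252 CPM (222 to 286, 442 cells), with Rag1 at 33.6 CPM against 6.80 and Trbc2 at 107 CPM against 37.9 before it. Macrophage-like cells fell to 76.8 CPM (62.5 to 93.4, 391 cells), while the B lineage-like, conventional DC-like and neutrophil-like sums were 139, 73.9 and 53.5 CPM. The classes were clustered again under that filter, and the cause was not tested. Neutrophils do not make a T cell receptor, so their level is used as the background of the library. The 10 neutrophil markers stood at 430057 CPM in these cells, which lowers the CPM of all other genes there. At 1000 UMIs per cell, with shallower cells left out, the share of cells with a UMI was 6.15% (3.80 to 9.34, 325 cells) in macrophage-like, 4.24% (2.44 to 6.80, 377 cells) in neutrophil-like, 3.85% in monocyte-like, 2.72% in conventional DC-like, 7.94% in B lineage-like and 49.7% in NK and ILC-like cells. The intervals of the macrophage-like and neutrophil-like cells overlapped. Unthinned, the same shares had median depths of 2488.5 and 1742.0 UMIs.

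**Figure D4:**
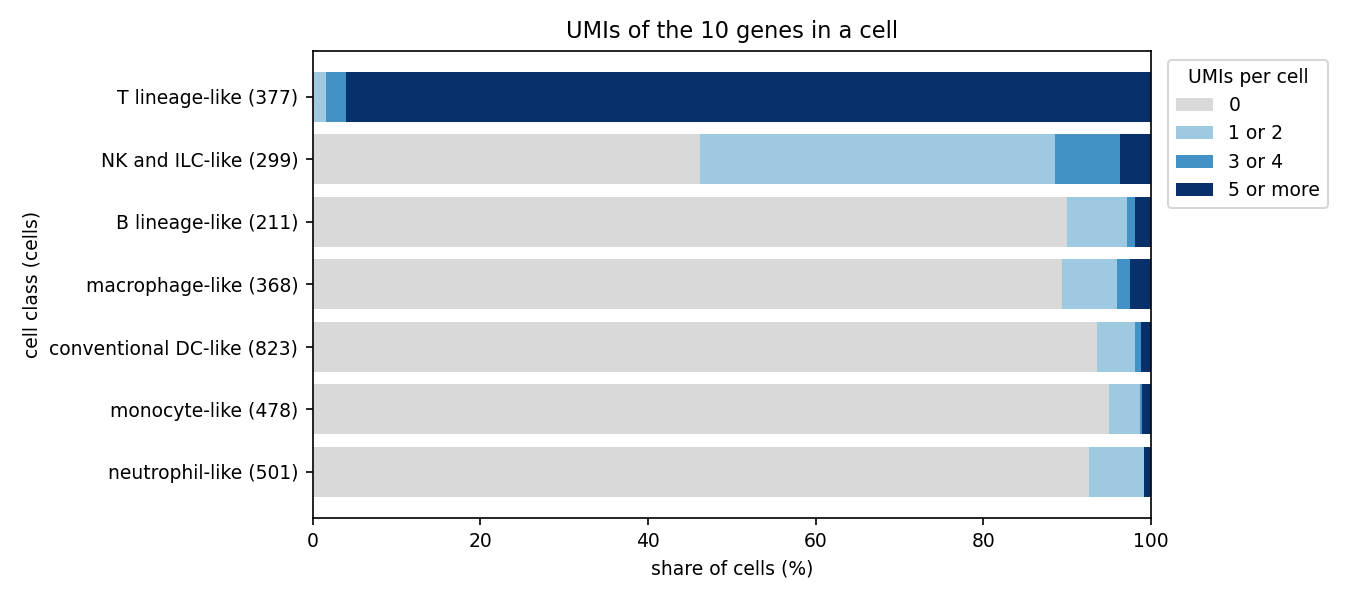
Share of cells (x axis, %) with 0, 1 or 2, 3 or 4, and 5 or more UMIs of the 10 genes in 7 classes (number of cells in brackets). The T lineage-like bar is almost wholly 5 or more (362 of 377 cells), the NK and ILC-like bar has 46.2% at 0, and the 5 other bars have a UMI in 5.02 to 10.6% of cells.

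NK and ILC-like cells stood apart from the background mainly by the beta chain constant segments, Trbc1 and Trbc2. Trbc2 was at 497 CPM (423 to 581) and Trbc1 at 423 CPM (355 to 500), against 14.0 and 5.46 CPM in neutrophil-like cells. Cd3d was at 80.8 CPM (52.8 to 118), Cd3g at 52.9 CPM, Trac at 43.5 CPM, Rag1 at 34.2 CPM (17.1 to 61.2) and Cd3e at 31.1 CPM. Of the 7 genes with enough UMIs, 7 were past a log2 ratio of 1 over neutrophil-like cells, where 28.5% of 6392 genes were. Relative to a median-of-ratios shift of 0.92, 4 of the 7 were. The summed log2 ratio was 4.43 (4.06 to 4.81), or 3.51 relative to that shift, and 2.91 without Trbc1 and Trbc2. Rag2 had 0 UMIs in these cells (up to 11.5 CPM), Dntt 7 and Ptcra 2.

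In NK and ILC-like cells the beta chain UMIs were spread over many cells. The cells with 1 or 2 UMIs of the 10 genes numbered 127, and the 11 cells with 5 or more held 135 of the 383 UMIs (35.2%). Leaving those 11 out, and the 4 such neutrophil-like cells, Trbc1 stood at 378 CPM and Trbc2 at 339 CPM and the summed log2 ratio was 4.77, but Rag1 was left with 1 UMI (3.29 CPM), Cd3e with 1 and Cd3g with 3 (9.86 CPM). Trbc1 and Trbc2 were found together in 26 cells, Trbc1 alone in 71 and Trbc2 alone in 50 of the 299. Trdc had 27 UMIs (83.9 CPM) and delta chain variable segments 36 UMIs (112 CPM), against 18.1 CPM of the latter in T lineage-like cells. Gamma chain constant segments had 0 UMIs.

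Receptor signalling genes were also present in the NK and ILC-like cells: 11 of 16 compared were past a log2 ratio of 1 over neutrophil-like cells, with a median of 2.55 beside 0.45 over all genes. Of all 6392 genes compared, 28.5% were past that ratio, and relative to the shift of 0.92, 9 of the 16 signalling genes were. Relative to that shift 3 of the 16 were lower by the same rule, where 0 were before it. Lck (239 against 3.90 CPM), Fyn (193 against 5.46 CPM) and Cd247, the CD3 zeta chain used by NK receptors as well (103 against 0.780 CPM), led them. Of 11 transcription factors, 7 were higher, among them Id2 (650 against 98.3 CPM), Gata3 and Tcf7, and 1 lower, Notch1 (12.4 against 39.8 CPM). Relative to the shift 4 of the 11 were higher. Of 5 end-joining partners, 3 were higher (Polm, Paxx and Hmgb1) and 1 lower (Hmgb2, 818 against 2173 CPM), and relative to the shift 0 were higher. The 13 T lineage markers summed to 432 CPM in NK and ILC-like cells, with 0 of them absent, against 4557 CPM in T lineage-like and 66.3 CPM in neutrophil-like cells. The 12 macrophage markers summed to 211 CPM. The part of T lineage cells or their RNA in these levels was not tested.

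Before scaling by the median of ratios, macrophage-like cells were above the neutrophil-like background for some of the 10 genes only. Trbc2 was at 36.8 CPM (26.3 to 50.1), Trbc1 at 30.3 CPM (20.9 to 42.6), Cd3d and Trac at 13.8 CPM each, Rag1 at 11.0 CPM (5.70 to 19.3) and Cd3e at 11.0 CPM. Dntt gave 5 UMIs, Cd3g 4, Rag2 1 and Ptcra 0. Other classes were not all lower: Trbc2 was at 37.9 CPM in monocyte-like and 48.4 CPM in B lineage-like cells. Rag1 and Trac were at 17.6 and 24.2 CPM in B lineage-like but at 6.80 and 1.94 CPM in monocyte-like cells. Trbc1 was lower in both classes (15.4 CPM in B lineage-like, 7.77 CPM in monocyte-like cells). Against neutrophil-like cells the log2 interval lay above 0 for Rag1 (0.10 to 3.91), Trac (0.29 to 3.64), Trbc1 (1.27 to 3.90) and Trbc2 (0.55 to 2.28), and held 0 for Cd3d (−1.18 to 0.95) and Cd3e (−0.11 to 3.36). These intervals take each UMI as independent, but the UMIs were gathered in few cells, so the intervals are too narrow. For Rag1, the 12 macrophage-like UMIs lay in 6 cells and the 4 neutrophil-like UMIs in 1 cell. Of the 6 genes with enough UMIs, only Trbc1 (33 against 7 UMIs) was past a log2 ratio of 1 over neutrophil-like cells, where 30.5% of 8168 genes were, and relative to a median-of-ratios shift of 0.91 it was not (0 of 6). The median log2 ratio of the 6 was 0.38, beside 0.62 over all genes compared. In sum the macrophage-like cells were 1.19 log2 units (0.76 to 1.62) above the neutrophil-like cells, or 0.28 relative to that shift.

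That sum rested on few cells. Of the 137 UMIs in 368 macrophage-like cells, 89 (65.0%) were in 9 cells with 5 or more, and without the cells of 5 or more in both classes the log2 difference was 0.61 (−0.04 to 1.26). It was 0.71 without Trbc1 and Trbc2 and 0.52 (0.04 to 1.02) with the stricter cell filter. With cells chosen directly by UMIs in place of clusters it was 3.92, since that choice takes every cell with at least 3 C1q UMIs as macrophage-like, and 20 cells that cluster as T lineage-like then bring 517 UMIs of the 10 genes. Those 20 cells, 5.31% of the T lineage-like class, had a median of 3246 UMIs, against 1050.0 in the class. The Gdf15-led cluster of macrophage-like cells (73 cells, with Timd4, Spic and Slc40a1 raised) held 12 UMIs and 0 cells with 5 or more (55.6 CPM, 28.7 to 97.2). The Ccl12-led cluster (295 cells) held 125 UMIs and all 9 such cells (143 CPM, 119 to 171). Those 9 cells held 89 of the 125 UMIs, and 36 UMIs lay in its cells with 1 to 4. The share of cells with 0 UMIs of the 10 genes was 89.2% in the Ccl12-led and 90.4% in the Gdf15-led cluster. The higher level of the Ccl12-led cluster thus rested on those 9 cells.

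The 9 macrophage-like cells were described one by one. They held 19, 12, 11, 10, 9, 8, 7, 7 and 6 UMIs of the 10 genes in 539 to 10492 UMIs in all. Of them 8 also held C1q UMIs, 4 to 56 each, and 1 held 0. The cells with 19 and 12 UMIs of the 10 genes also held 28 and 10 UMIs of NK markers, and the 7 others held 0. The part of NK cells in these 2 cells was not tested. All 9 held UMIs of 12 companion genes of thymocytes (among them Cd8a, Cd8b1, Tcf7, Lef1, Satb1, Themis, Bcl11b and Lck), against 7.90% of the 329 macrophage-like cells with no UMI of the 10. The recombination-stage genes had 0 to 5 UMIs in each, and the cell with 5 of them had 539 UMIs in all. The median doublet score was 0.0762 in the 9 cells and 0.0620 in the 329, and median depth was 3240 and 2466 UMIs. RNA taken up by a macrophage, a droplet with 2 cells and free RNA cannot be told apart in these counts.

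The same unevenness was found in the other classes. Cells with 5 or more UMIs held 70.1% of the UMIs of the 10 genes in conventional DC-like (10 cells), 68.4% in monocyte-like (5), 62.3% in B lineage-like (4) and 46.5% in neutrophil-like cells (4). Over the 32 such cells outside the T lineage-like and NK and ILC-like classes, all 32 held companion UMIs, against 12.8% of the 2328 cells with 0 UMIs of the 10 genes. Their median depth was 3371 UMIs against 2493.5, and their median doublet score 0.0827 against 0.0379. Without cells of 5 or more, the summed level was 45.5 CPM in macrophage-like, 29.9 CPM in neutrophil-like, 23.6 CPM in monocyte-like, 21.8 CPM in conventional DC-like and 52.1 CPM in B lineage-like cells. The macrophage-like cells were thus not the only class with such cells, and their share, 9 of 368, lay beside 10 of 823 in conventional DC-like and 4 of 501 in neutrophil-like cells.

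The make-up of the UMIs was compared as well. Recombination-stage genes took 13.2% (12.5 to 14.0) of the UMIs of the 10 genes in T lineage-like cells and 13.1% (7.98 to 20) in macrophage-like cells. The share was 14.2% in conventional DC-like, 15.8% in monocyte-like, 15.5% in neutrophil-like and 16.4% in B lineage-like cells, all with intervals that held the T lineage-like value. In NK and ILC-like cells it was 5.22% (3.22 to 7.95) and the constant segments took 80.9% (76.6 to 84.8), against 63.0% (61.9 to 64.1) in T lineage-like cells. CD3 genes took 42.3% (30.6 to 54.6) in neutrophil-like cells, above the 23.7% (22.8 to 24.7) of T lineage-like cells, with 19 of the 30 CD3 UMIs from Cd3d. A single neutrophil-like cell held 9 of these 30 UMIs, which the interval does not cover. The CD3 share was 52.8% (35.5 to 69.6) in the Retnlg-led neutrophil-like cluster. In the Ltf-led cluster it was 32.4% (17.4 to 50.5), an interval that held the T lineage-like value. Trac took 10.9% (6.26 to 17.4) in macrophage-like and 18.0% (9.36 to 30) in B lineage-like cells, against 4.01% (3.58 to 4.48) in T lineage-like and 10.8% (8.84 to 13) in mature single-positive-like cells.

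**Figure D5:**
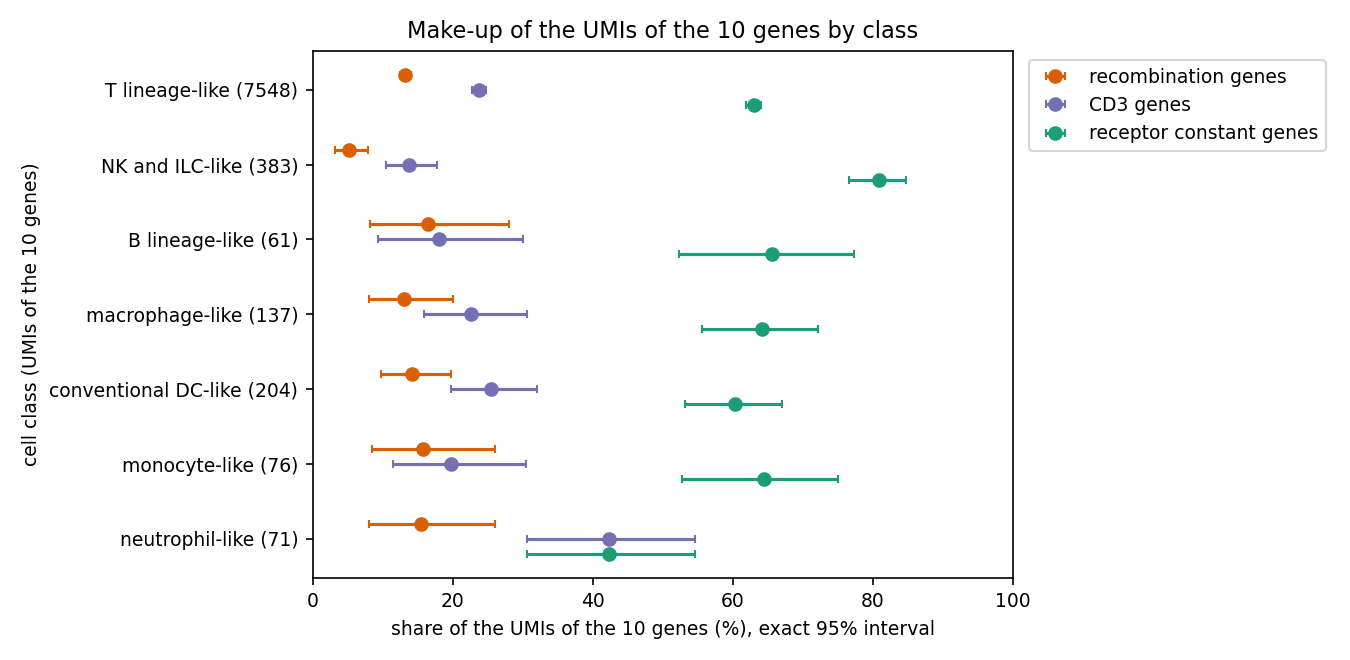
Share of the UMIs of the 10 genes (x axis, %, exact 95% binomial intervals) taken by the 4 recombination-stage, 3 CD3 and 3 receptor constant genes in 7 classes, with the number of UMIs in brackets. The recombination share is 13.2% in T lineage-like and 13.1% in macrophage-like cells and 5.22% in NK and ILC-like cells, and neutrophil-like cells show equal CD3 and constant shares of 42.3%.

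Macrophage-like and neutrophil-like cells were also compared for the rest of the pathway. Of 12 signalling genes, 5 were past a log2 ratio of 1 in macrophage-like cells, with a median of 0.95 beside 0.62 over all genes: Cd4 (64.3 against 2.34 CPM), Fyn (46.9 against 5.46 CPM), Cd8b1 (16.5 against 1.56 CPM), Lcp2 and Ptpn22. Over all 8168 genes compared, 30.5% were past that ratio. Relative to the shift of 0.91, Cd4 was the 1 of the 12 still past it. Of 12 transcription factors, Id3 (46.9 against 2.34 CPM) and Id2 were higher and Ets1 (23.0 against 81.9 CPM) lower. Relative to the shift Id3 was the 1 still higher, and 2 were lower. Of 7 end-joining partners, Atm was higher and Hmgb2 (534 against 2173 CPM) lower, and 0 were higher relative to the shift. Of the 5 companion genes with enough UMIs, 1 was higher, Cd8b1, and 0 were relative to the shift. Tcf7, Lck and Satb1 stood at 13.8, 13.8 and 42.3 CPM against 5.46, 3.90 and 43.7 CPM.

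Cells with at least 2 UMIs of Siglech, a gene of plasmacytoid dendritic cells, numbered 17, a type in which Dntt and Ptcra are known to be transcribed. Of them 1 held 3 Dntt UMIs and 1 held 2 Trbc1 UMIs. The 8 other genes, Ptcra included, had 0 UMIs in the 17 cells.

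Across 19 clusters and T groups, the pattern of each gene was set beside that of 8806 other genes by Pearson's r of log2(CPM + 10), as a description over groups that share 1 library. Nearest to Rag1 were Nebl (0.976), Tube1 (0.974) and Endou (0.972), to Rag2 Gm525, Dgkeos and Arpp21 (0.954), and to Dntt Arpp21 (0.972), Endou and Slc16a1. Ptcra lay nearest to Fkbp5 (0.962), Slc16a1 and Arpp21. Bcl11b was the nearest gene to all 3 CD3 genes, with 0.963 for Cd3d, 0.977 for Cd3e and 0.976 for Cd3g. Trac lay nearest to Cd6 (0.961), Cd27 and Nlk, Trbc1 to Lat (0.968), Cd247 and Sh2d1a, and Trbc2 to Lck (0.988), Cd247 and Thy1. Among the 10 genes themselves, Ptcra and Trac were the least alike (0.449).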

How the data were processed

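Per the file headers, the authors deposited raw UMI counts made with Cell Ranger 6.0.0 (2021) and 8.0.0 (2024). The submitters' processing notes name build mm10. The use of intronic reads and of reads that match several genes is not given in the sources used here. The members and gene lists were chosen with earlier results of these data known. Cells were filtered as stated, scaled to 10000 UMIs and clustered with scanpy 1.11.5 (2000 variable genes, 30 components, 15 neighbours, Leiden at resolution 0.5 with igraph 0.11.9, 1.0 within T lineage-like cells), leaving out the 10 genes and 260 T cell receptor segment rows. Names needed at least 3 raised markers and no more markers of another class than of their own among the 10 leading genes; they can differ from the study's. Scrublet called 3 doublets, too few for a working call, and none was removed; an alternative removed the 6% of highest scores. Comparisons added 10 CPM and took genes with at least 15 UMIs over both groups; a log2 ratio of 1 or more was called. Thinning drew UMIs without replacement. Besides the 10 genes, the text names the 3 list genes of largest ratio, those in counts of 5 or fewer, and the 3 most alike genes; stage genes were named after their values were seen. Positions come from the GENCODE annotation of GRCm38. A gene of these lists is not reported here by name. The counting of called genes was tested on simulated data. Calculations ran in Python 3.11.15 with pandas 2.3.3, numpy 2.4.6 and, for intervals, scipy 1.17.1.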

Additional observations from a re-analysis of the deposited data

How the results depend on the processing

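Recomputed under other cell filters, doublet removal, resolutions, pseudocounts, gene filters and scaling, the count of genes past a log2 ratio of 1 in T lineage-like cells stayed at 10. The macrophage-like over neutrophil-like log2 difference of 1.19 was 0.52 with the stricter cell filter (1000 UMIs, 500 genes, 5% mitochondrial), 3.92 with cells chosen by UMIs, 0.71 without Trbc1 and Trbc2 and 0.61 without cells of 5 or more UMIs of the 10 genes. The NK and ILC-like over neutrophil-like difference of 4.43 was 2.91 without Trbc1 and Trbc2. The recombination share in T lineage-like cells, 13.2%, was 11.5% with the stricter filter and 14.6% with cells chosen by UMIs. The double-positive-like over mature single-positive-like difference of 5.49 was 4.01 with no cell filter; with the stricter filter, with cells chosen by UMIs and at resolution 0.5 within T lineage-like cells (added after the data had been seen) no value could be had. The thinned share of macrophage-like cells with a UMI, 6.15%, was 11.3% with cells chosen by UMIs and 10.6% without thinning. No direction reversed among these. Of 390 single levels by class and setting, 328 moved by less than their counting interval and 62 by more, 20 of 60 in T lineage-like cells. Leaving out a replicate was not possible, since 1 library carries all values, and no paired analysis was possible because the 2024 gene names were not analysed here. Depth limits Rag2 and Ptcra most, with 48 and 55 UMIs in all cells.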
